A study of Mus musculus with 10 samples.

Results

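The insulin-like growth factor (IGF) system of the mouse uterus was followed through 10 genes: the ligand Igf1, its receptor Igf1r, the binding protein genes Igfbp2 to Igfbp7, and Irs1 and Irs2, which encode docking proteins of the receptor. Its members were all probes whose platform gene symbol is one of these, 23 of the 45281 on the array, which carries 19057 gene symbols. Of these, 18 were detected above background (detection p under 0.05) on at least 2 of the 10 arrays and were tested, and they covered 9 of the 10 genes. Igf1r, Igfbp3, Igfbp5 and other members have more than 1 probe, and every probe is given, since probes of 1 gene did not always move alike. Pregnant CD-1 mice, an outbred stock, received bisphenol A (BPA), a weakly estrogenic compound used to make plastics, intraperitoneally at 5 mg/kg each day, or DMSO as its vehicle, on gestation days 9 to 21. All female offspring were ovariectomised at 6 weeks, so none had an ovarian source of estrogen, and at 8 weeks they were injected with 300 ng of estradiol (E2) or DMSO vehicle, with the uterus taken 6 h later. The groups were BPA in utero with E2 (BPA-E2, 3 arrays), BPA in utero with vehicle injection (BPA-vehicle, 3 arrays), vehicle in utero with E2 (vehicle-E2, 2 arrays) and vehicle in utero with vehicle injection (vehicle-vehicle, 2 arrays). Each array held whole-uterus RNA pooled within a litter, so it averages over animals and cell types.

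IGF1 is a secreted peptide that binds a receptor tyrosine kinase, IGF1R, and the activated receptor phosphorylates the IRS proteins, which recruit PI3 kinase and so start AKT signalling. Most IGF1 outside cells is held by IGF binding proteins, which limit or prolong its access to the receptor and are cleared by proteases. In the rodent uterus, estrogen is known to raise Igf1 in the stroma, and stromal IGF1 is known to act on the epithelium, where it drives proliferation.

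The 250 bases upstream of a RefSeq start (GRCm38.p6) are shown for Igf1, Igf1r, Irs2, Igfbp3 and Igfbp5, to be read beside their values. For Igf1 and Igfbp3 this start lies inside the gene's RefSeq limits (Igf1 begins at 87858265 and Igfbp3, on the minus strand, at 7215498). Their windows are thus not the sequence ahead of the outermost start. All 10 genes matched the RefSeq promoter table, Igfbp2 with 2 starts. Capitals mark matches to any of 5 motifs, searched on both strands: the palindromic estrogen response element, its half-site GGTCA (contained in the full element), the AP-1 site TGANTCA, the FOXO site GTAAACA and the GC box GGGCGG.
Igf1, chr10:87860861-87861110, plus strand: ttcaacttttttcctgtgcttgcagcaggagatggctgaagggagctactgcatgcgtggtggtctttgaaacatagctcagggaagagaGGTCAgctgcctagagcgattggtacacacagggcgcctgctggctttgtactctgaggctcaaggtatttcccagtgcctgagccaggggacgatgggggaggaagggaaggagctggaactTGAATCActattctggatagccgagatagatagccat
Igf1r, chr7:67952007-67952256, plus strand: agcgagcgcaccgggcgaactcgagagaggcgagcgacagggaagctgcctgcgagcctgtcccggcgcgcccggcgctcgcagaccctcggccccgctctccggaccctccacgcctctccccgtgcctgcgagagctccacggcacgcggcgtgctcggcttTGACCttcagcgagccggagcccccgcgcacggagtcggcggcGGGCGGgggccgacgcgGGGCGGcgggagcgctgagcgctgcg
Irs2, chr8:11008930-11009179, minus strand: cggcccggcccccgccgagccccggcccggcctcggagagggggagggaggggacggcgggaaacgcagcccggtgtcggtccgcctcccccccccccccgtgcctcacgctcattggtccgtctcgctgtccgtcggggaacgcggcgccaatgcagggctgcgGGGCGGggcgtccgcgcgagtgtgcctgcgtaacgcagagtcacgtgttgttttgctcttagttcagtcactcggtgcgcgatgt
Igfbp3, chr11:7213924-7214173, minus strand: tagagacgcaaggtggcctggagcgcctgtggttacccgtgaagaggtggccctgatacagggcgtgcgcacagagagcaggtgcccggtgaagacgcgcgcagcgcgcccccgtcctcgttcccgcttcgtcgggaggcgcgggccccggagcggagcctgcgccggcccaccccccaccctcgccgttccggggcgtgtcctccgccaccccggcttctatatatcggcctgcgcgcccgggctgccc
Igfbp5, chr1:72874866-72875115, minus strand: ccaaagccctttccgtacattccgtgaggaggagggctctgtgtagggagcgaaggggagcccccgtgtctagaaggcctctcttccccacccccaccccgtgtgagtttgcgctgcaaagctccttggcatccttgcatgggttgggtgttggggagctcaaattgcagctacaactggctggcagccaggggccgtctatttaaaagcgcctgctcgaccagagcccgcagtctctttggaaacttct
The full estrogen response element was in 0 of the 11 member windows and in 0.0639% of 32851 windows of the same length. A half-site was in 5 of the 11, among them Igf1 and Igf1r, against 35.2% of all windows. Igf1 also held 1 AP-1 site, which was in 2 of the 11 and in 6.75% of all windows. The other was in a window of Igfbp2, which is not shown. Igf1r and Irs2 held GC boxes, which were in 5 of the 11 and in 32.7% of all windows. The FOXO site, in 3.17% of all windows, was in none of the 11. The windows of Igfbp3 and Igfbp5 held no match to any of the 5 motifs, and these matches describe letters in a window, not binding.

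Levels are normalized log2 intensities, which order samples for 1 probe and not probes against each other. Changes are log2 fold changes ± standard error from limma, called at an adjusted p under 0.05 (Benjamini-Hochberg over 23942 probes). Between 43.6% and 46.6% of probes were detected on an array, and arrays of a group correlated at r = 0.991 to 0.993. The p-values rest on the spread between litter pools within groups of 2 or 3, shared over all 4 groups and moderated across probes. The 6 BPA-exposed arrays lay on one slide and the 4 vehicle-exposed arrays on another, so slide and in utero exposure cannot be told apart in any BPA effect, while the E2 responses lie within a slide. Uterine markers were present (8 of 8 detected, among them Esr1, Pgr and Hoxa10), as were those of stroma (7 of 7), smooth muscle (6 of 6) and epithelium (6 of 7, Epcam not detected). Ovarian and steroidogenic markers were not detected (0 of 5). In whole-uterus RNA, fewer cells of a type and less RNA per cell cannot be told apart.

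Member probes changed in every comparison. After BPA in utero, E2 raised 5 of 18 member probes and lowered 2, where 24.9% of all probes were called (13.0% higher, 11.9% lower). After vehicle in utero, E2 raised 1 and lowered 5 of the 18, where 18.1% of all probes were called (8.96% higher, 9.11% lower). With BPA in utero under E2, 8 were higher and 4 lower than with vehicle in utero (26.5% of all probes called, 13.7% higher and 12.8% lower), and without E2 2 were higher and 6 lower (26.9% called, 14.2% higher and 12.7% lower). The median change of the 18 was 0.03 for E2 after BPA and -0.15 for E2 after vehicle, against 0.03 for all probes in both. For BPA under E2 it was 0.02 and for BPA without E2 -0.12, against 0.03 and 0.04 for all probes. A fit blocked on litter called 4 of the 18 for E2 after BPA, and 4727 of all probes against 5971 without the block.

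**Figure D1:**
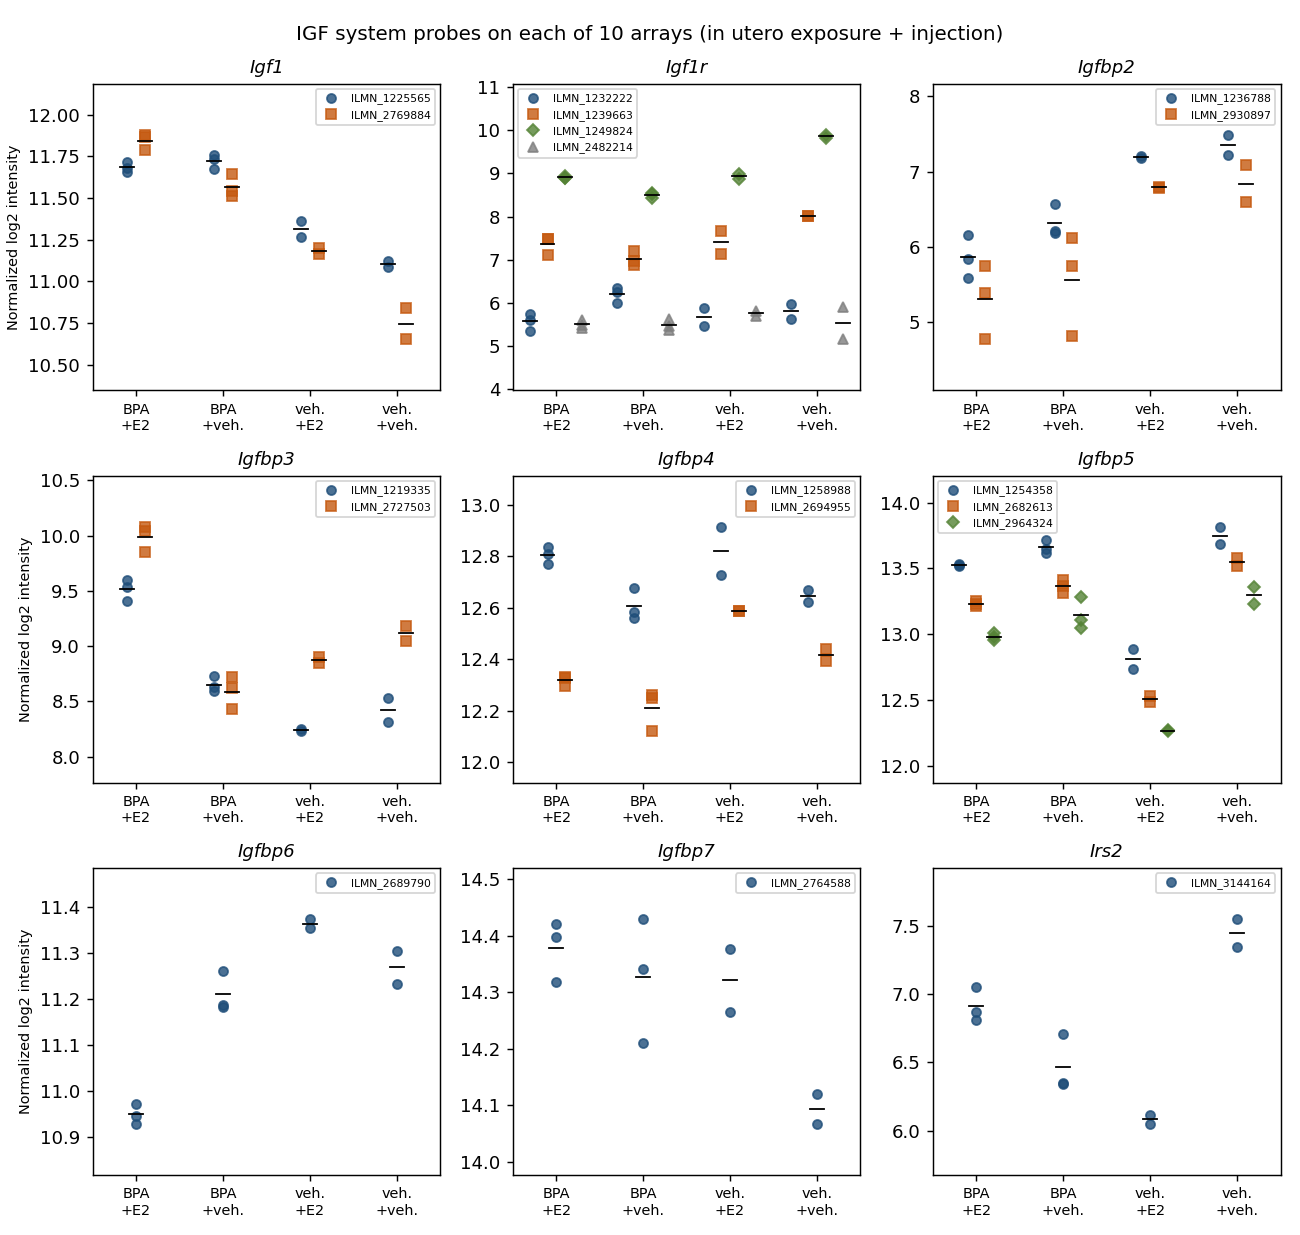
Normalized log2 intensity of the 18 tested probes of 9 IGF system genes on each of the 10 arrays. Each point is 1 array, the horizontal line is the group mean, marker shapes separate probes of a gene, and the groups are in utero exposure plus injection. Igfbp5 and Irs2 are lowest in the vehicle-E2 group, and Igfbp3 is highest in the BPA-E2 group.

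Igf1, the ligand, was higher in BPA-exposed uteri under either injection, and E2 raised it by 1 of its 2 probes. Probe ILMN_2769884 read 11.88, 11.79 and 11.87 in BPA-E2, 11.54, 11.64 and 11.51 in BPA-vehicle, 11.16 and 11.20 in vehicle-E2, and 10.84 and 10.65 in vehicle-vehicle arrays. The 4 groups did not overlap and stood in that order, BPA-E2 highest and vehicle-vehicle lowest. By this probe Igf1 was higher with BPA by 0.66 ± 0.09 under E2 (adjusted p = 0.000925) and by 0.82 ± 0.09, or 1.76-fold, without E2 (adjusted p = 0.000286). E2 raised it by 0.28 ± 0.08 after BPA (adjusted p = 0.0346) and by 0.44 ± 0.10 after vehicle (adjusted p = 0.0168). Neither E2 call passed when litter was blocked (adjusted p = 0.0969 after BPA and 0.0668 after vehicle), nor with no detection filter after BPA (adjusted p = 0.0559) or with the compared groups alone after vehicle (adjusted p = 0.121). They were lost also when single arrays were left out, any of the 3 BPA-E2 arrays or replicate 1 or 3 of BPA-vehicle (adjusted p = 0.0597 to 0.0997) and either vehicle-E2 array or replicate 2 of vehicle-vehicle (adjusted p = 0.0601 to 0.0974).

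Probe ILMN_1225565, annotated to the same Igf1 transcript record, read 11.65, 11.68 and 11.72 in BPA-E2, 11.68, 11.76 and 11.74 in BPA-vehicle, 11.36 and 11.26 in vehicle-E2, and 11.09 and 11.12 in vehicle-vehicle arrays. Here the BPA-E2 and BPA-vehicle arrays overlapped. The change with E2 was -0.04 ± 0.07 after BPA (95% interval -0.20 to 0.12, adjusted p = 0.723) and 0.21 ± 0.09 after vehicle (adjusted p = 0.129), neither past the threshold. With BPA, this probe was 0.37 ± 0.08 higher under E2 (adjusted p = 0.00828) and 0.62 ± 0.08 higher without E2 (adjusted p = 0.000573). The measured response to E2 after BPA was smaller by 0.32 for this probe than for the other Igf1 probe. An exact two-sided permutation gave p = 0.1 (0.162 adjusted over 13 probe pairs). This is the smallest p that 3 against 3 arrays allow, so the test cannot decide whether the probes differ. That the Igf1 probes disagree was also known before they were compared. Under E2, the call for BPA by this probe was lost without replicate 2 of vehicle-E2 (adjusted p = 0.0629).

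The receptor Igf1r was highest in vehicle-vehicle uteri, by its 2 brighter probes. Probe ILMN_1249824 read 8.90, 8.90 and 8.93 in BPA-E2, 8.44, 8.53 and 8.55 in BPA-vehicle, 8.87 and 8.99 in vehicle-E2, and 9.90 and 9.83 in vehicle-vehicle arrays. E2 had opposite effects after the different exposures: a rise of 0.41 ± 0.07 after BPA (adjusted p = 0.00394) and a fall after vehicle, -0.93 ± 0.09 (adjusted p = 0.00027). Without E2, BPA-exposed uteri were lower by this probe, at -1.36 ± 0.08 or 2.56-fold (adjusted p = 9.79e-06). Under E2 the BPA-E2 and vehicle-E2 arrays overlapped, with a difference of -0.02 ± 0.08 and a 95% interval of -0.20 to 0.17. The calls by this probe held in every alternative run.

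Probe ILMN_1239663, annotated to the same Igf1r transcript record, read 7.47, 7.49 and 7.11 in BPA-E2, 6.97, 7.20 and 6.89 in BPA-vehicle, 7.13 and 7.67 in vehicle-E2, and 8.02 on both vehicle-vehicle arrays. The vehicle-vehicle arrays were above all others. It was lower with BPA without E2 (95% interval -1.41 to -0.59, adjusted p = 0.004), and its E2 changes, 0.34 ± 0.16 after BPA and -0.62 ± 0.20 after vehicle, did not pass (adjusted p = 0.168 and 0.0634), although the change after vehicle passed with the variance trend, with no background correction, in the authors' table (adjusted p = 0.00502 to 0.00625) and without replicate 2 of vehicle-E2. It rested on the vehicle-E2 arrays, being -0.35 without replicate 1 (adjusted p = 0.305) and -0.89 without replicate 2 (adjusted p = 0.0269). The remaining Igf1r probes were dim. ILMN_1232222, annotated to another transcript record, moved against the bright probe after BPA, with a fall of 0.63 ± 0.16 with E2 (adjusted p = 0.0197), a call lost without replicate 1 of BPA-E2 or replicate 2 or 3 of BPA-vehicle (adjusted p = 0.0614 to 0.0681). ILMN_2482214 did not pass in any of the 5 comparisons. For BPA without E2, where the brighter probes were lower, ILMN_1232222 had 0.40 ± 0.18 (adjusted p = 0.138). ILMN_2482214 had -0.04 ± 0.19 there (adjusted p = 0.914). The raw signal of these dim probes was 138 to 180 and 133 to 155, where 95% of undetected probes lay below 124 to 134.

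Irs2, a docking protein of the insulin and IGF1 receptors, had its highest level in vehicle-vehicle uteri, as the 2 brighter Igf1r probes did, and its lowest in vehicle-E2 uteri. It read 7.05, 6.86 and 6.81 in BPA-E2, 6.35, 6.71 and 6.34 in BPA-vehicle, 6.11 and 6.05 in vehicle-E2, and 7.55 and 7.34 in vehicle-vehicle arrays. The 4 groups did not overlap. The raw signal of Irs2 was 167 to 269, where 95% of undetected probes lay below 124 to 134. E2 raised Irs2 by 0.44 ± 0.12 after BPA (adjusted p = 0.0282) and lowered it after vehicle, at -1.36 ± 0.15 or 2.57-fold (adjusted p = 0.000528). With BPA it was higher under E2, by 0.83 ± 0.14 (adjusted p = 0.00259), and lower without E2, at -0.98 ± 0.14 (adjusted p = 0.00101). The sizes varied over the alternatives, from -1.47 to -0.71 for E2 after vehicle. For BPA they ran from 0.39 to 0.88 under E2 and from -1.10 to -0.54 without E2. The rise after BPA did not pass when litter was blocked (adjusted p = 0.0575), nor without replicate 1 or 2 of BPA-E2 or replicate 1 or 3 of BPA-vehicle (adjusted p = 0.0616 to 0.0939), while the other Irs2 calls held in every alternative run. Irs1, the other docking protein measured, was detected on 1 of 10 arrays (1 BPA-E2 array) and was not tested.

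Igfbp5, a secreted binding protein that is held in the extracellular matrix, fell with E2 after vehicle by all 3 of its probes. Probe ILMN_2682613 read 13.22, 13.25 and 13.23 in BPA-E2, 13.37, 13.41 and 13.31 in BPA-vehicle, 12.48 and 12.53 in vehicle-E2, and 13.52 and 13.58 in vehicle-vehicle arrays. The vehicle-E2 arrays stood far below all others, while the BPA-E2 arrays lay close below the BPA-vehicle arrays. After BPA the E2 changes of the 3 probes were -0.13 ± 0.08, -0.13 ± 0.07 and -0.16 ± 0.08 and did not pass (adjusted p = 0.192 to 0.248), though all 3 passed under the variance trend (adjusted p = 0.0119 to 0.0243). After vehicle they were -0.94 ± 0.09, -1.04 ± 0.08 and -1.03 ± 0.10 (adjusted p = 0.000128 to 0.000343), the second a 2.06-fold fall. With BPA, Igfbp5 was 0.71 to 0.72 higher under E2 (adjusted p = 0.000227 to 0.000779). Without E2 the BPA effect was -0.09 to -0.19 and did not pass (adjusted p = 0.108 to 0.488), but ILMN_2682613 passed with cyclic loess (-0.31, adjusted p = 0.0165) and, with ILMN_2964324, under the variance trend (adjusted p = 0.00308 and 0.04).

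Igfbp3, a carrier that forms a ternary complex with IGF1 and the acid-labile subunit in serum, rose with E2 after BPA. Probe ILMN_2727503 read 9.85, 10.04 and 10.08 in BPA-E2, 8.72, 8.62 and 8.43 in BPA-vehicle, 8.85 and 8.90 in vehicle-E2, and 9.18 and 9.05 in vehicle-vehicle arrays. The BPA-E2 arrays were above all others and the BPA-vehicle arrays below all others. E2 raised this probe by 1.40 ± 0.10, or 2.64-fold, after BPA (adjusted p = 2.23e-05), and the change after vehicle was -0.24 ± 0.12 (adjusted p = 0.221). Probe ILMN_1219335 read 9.60, 9.41 and 9.54 in BPA-E2, 8.60, 8.63 and 8.73 in BPA-vehicle, 8.23 and 8.25 in vehicle-E2, and 8.53 and 8.31 in vehicle-vehicle arrays. It rose by 0.86 ± 0.09 with E2 after BPA (adjusted p = 0.000211), with -0.18 ± 0.11 after vehicle (adjusted p = 0.308). Under E2, Igfbp3 was higher in BPA-exposed uteri by both probes, by 1.12 ± 0.11 and 1.28 ± 0.10 (adjusted p = 0.000176 and 4.46e-05).

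Without E2 the Igfbp3 probes went apart: ILMN_2727503 was lower with BPA, at -0.53 ± 0.11 (adjusted p = 0.00869), and ILMN_1219335 had 0.23 ± 0.10 (adjusted p = 0.124). The call was lost without replicate 1 of vehicle-vehicle (adjusted p = 0.0669), so no direction is given for Igfbp3 there. Adipocyte markers (3 of 5 detected, Plin1 and Fabp4 not) were highest in BPA-E2 arrays, as Igfbp3 was, but differed from it elsewhere, their summed intensity being 4144 to 4376 in BPA-E2, 1961 to 2040 in BPA-vehicle, 1251 in vehicle-E2 and 2345 to 2474 in vehicle-vehicle arrays. Epithelial markers moved the other way after BPA, at 7184 to 7650 in BPA-E2 against 15930 to 18525 in BPA-vehicle arrays (5 of 6 called lower). Of stromal markers 4 of 7 were called lower and 1 higher with E2 after BPA, and of smooth muscle markers 4 of 6 lower. Mast cell markers (5 of 5 detected) had a higher sum with E2 after BPA, at 4599 to 4746 against 2311 to 2450, with 3 of 5 called higher. Endothelial markers (5 of 5 detected) were highest in BPA-E2, at 3562 to 3747, and lowest in BPA-vehicle arrays, at 2682 to 2798. With E2 after BPA 2 of these 5 were called higher. Erythroid markers (2 of 3 detected, Hbb-b1 not) were highest in BPA-E2 arrays too, at 43071 to 44593. The part of these cell types in the results was not tested.

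Igfbp2, another carrier, was lower in BPA-exposed uteri under either injection. Probe ILMN_1236788 read 5.85, 6.15 and 5.59 in BPA-E2, 6.57, 6.21 and 6.19 in BPA-vehicle, 7.21 and 7.18 in vehicle-E2, and 7.22 and 7.49 in vehicle-vehicle arrays. Every BPA-exposed array was below every vehicle-exposed array. It was lower in BPA-exposed uteri under E2, at -1.33 ± 0.18 or 2.52-fold (adjusted p = 0.000874), and without E2, at -1.03 ± 0.18 or 2.05-fold (adjusted p = 0.00317). Over the alternatives these changes ranged from -1.48 to -0.64 under E2 and from -1.17 to -0.55 without E2. The probe had a raw signal of 148 to 265, where 95% of undetected probes lay below 124 to 134. Its E2 changes, -0.46 ± 0.16 after BPA and -0.16 ± 0.20 after vehicle, did not pass (adjusted p = 0.0678 and 0.631), but the change after BPA passed with cyclic loess, under the variance trend and without replicate 2 of BPA-E2 (adjusted p = 0.0291 to 0.0471). The other Igfbp2 probe, ILMN_2930897, was detected on 2 of 3 arrays in each BPA-exposed group and gave -1.49 ± 0.38 and -1.28 ± 0.38 for the same BPA effects (adjusted p = 0.0207 and 0.0377), calls that were lost when single arrays were left out (adjusted p = 0.0579 to 0.0882 under E2 and 0.0618 to 0.194 without E2).

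Igfbp6, a carrier that prefers IGF2, was lowest in BPA-E2 uteri. It read 10.95, 10.93 and 10.97 in BPA-E2, 11.26, 11.19 and 11.18 in BPA-vehicle, 11.37 and 11.35 in vehicle-E2, and 11.23 and 11.30 in vehicle-vehicle arrays. The BPA-E2 arrays were below all others, and the BPA-vehicle and vehicle-vehicle arrays overlapped. With E2 after BPA it was lower, at -0.26 ± 0.07 (adjusted p = 0.0222), which did not pass when litter was blocked (adjusted p = 0.0764), nor without any of the 3 BPA-E2 arrays or replicate 1 of BPA-vehicle (adjusted p = 0.0537 to 0.0742). With BPA under E2 it was lower, at -0.41 ± 0.08 (adjusted p = 0.00424), and its E2 responses differed by -0.36 ± 0.11 (adjusted p = 0.0649), which passed under 5 alternatives (adjusted p = 0.00336 to 0.0427). Igfbp4, whose product inhibits IGF action, and Igfbp7, a related protein of low IGF affinity, had few calls. The 2 Igfbp4 probes and the detected Igfbp7 probe passed in no comparison except ILMN_2694955 of Igfbp4 for BPA under E2, at -0.27 ± 0.08 (adjusted p = 0.0361). This call was lost when any array of either group was left out, with no detection filter and with the compared groups alone (adjusted p = 0.0595 to 0.127), and the other Igfbp4 probe gave -0.02 ± 0.09. Small changes of these probes passed under some alternatives. For BPA without E2 these were ILMN_2694955 under 4 (-0.20 to -0.30, adjusted p = 0.00361 to 0.0385) and Igfbp7 under 3 (0.21 to 0.23, adjusted p = 0.00034 to 0.0379). For E2 after BPA it was ILMN_1258988 under 3 (adjusted p = 0.00212 to 0.0343). For E2 after vehicle all 3 probes passed under the variance trend (adjusted p = 0.00188 to 0.0361). The detected Igfbp7 probe had a raw signal of 15642 to 23091, and 4 further Igfbp7 probes were detected on at most 1 array.

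**Figure D2:**
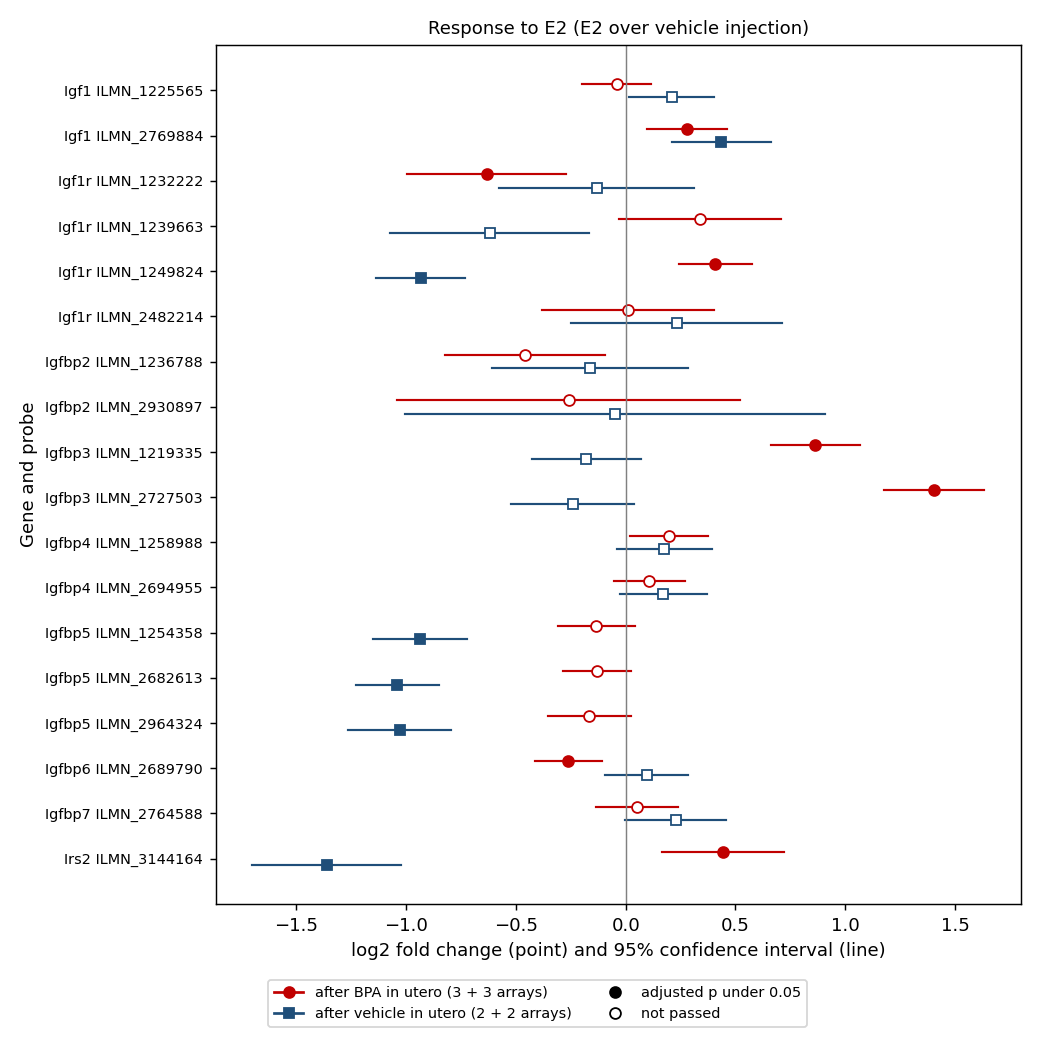
Log2 fold change with E2 over vehicle injection for the 18 tested probes, after BPA in utero (circles) and after vehicle in utero (squares), with 95% confidence intervals. Filled symbols passed an adjusted p under 0.05. Irs2, the bright Igf1r probe and the 3 Igfbp5 probes lie well below 0 after vehicle only, and both Igfbp3 probes lie above 0 after BPA.

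The E2 responses themselves differed between the exposures for 8 of 18 member probes, of 4 genes. All 8 were more positive after BPA, where 12.1% of all probes were called (6.01% more positive, 6.14% more negative). The median difference over the 18 was -0.02, against -0.01 for all probes. Irs2 had the largest difference, 1.81 ± 0.19 (adjusted p = 0.000556), with responses of opposite sign. This difference ranged from 0.94 to 1.93 over the alternatives. Igfbp3 differed by 1.64 ± 0.16 and 1.04 ± 0.14 (adjusted p = 0.000311 and 0.00183), and Igfbp5 by 0.80 to 0.91 over its probes (adjusted p = 0.000903 to 0.00352). Igf1r differed by 1.34 ± 0.12 for the bright probe (adjusted p = 0.000155) and by 0.96 ± 0.26 for ILMN_1239663 (adjusted p = 0.044). The last call did not pass when litter was blocked (adjusted p = 0.0506), with no detection filter (adjusted p = 0.0635) or when a single array was dropped, namely replicate 1 of vehicle-E2, either vehicle-vehicle array, replicate 1 or 2 of BPA-E2, or replicate 1 or 3 of BPA-vehicle (adjusted p = 0.0876 to 0.126). For Igf1 the differences were -0.25 ± 0.11 and -0.16 ± 0.13 and did not pass (adjusted p = 0.19 and 0.492). Macrophage and dendritic cell markers (4 of 6 detected, Cd68 and Itgax not) were at a summed intensity of 557 to 604 in BPA-E2, 667 to 715 in BPA-vehicle, 734 to 747 in vehicle-E2 and 1760 to 1855 in vehicle-vehicle arrays. They were highest in the group where Irs2 and the 2 brighter Igf1r probes were highest. The part of these cells was not tested.

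**Figure D3:**
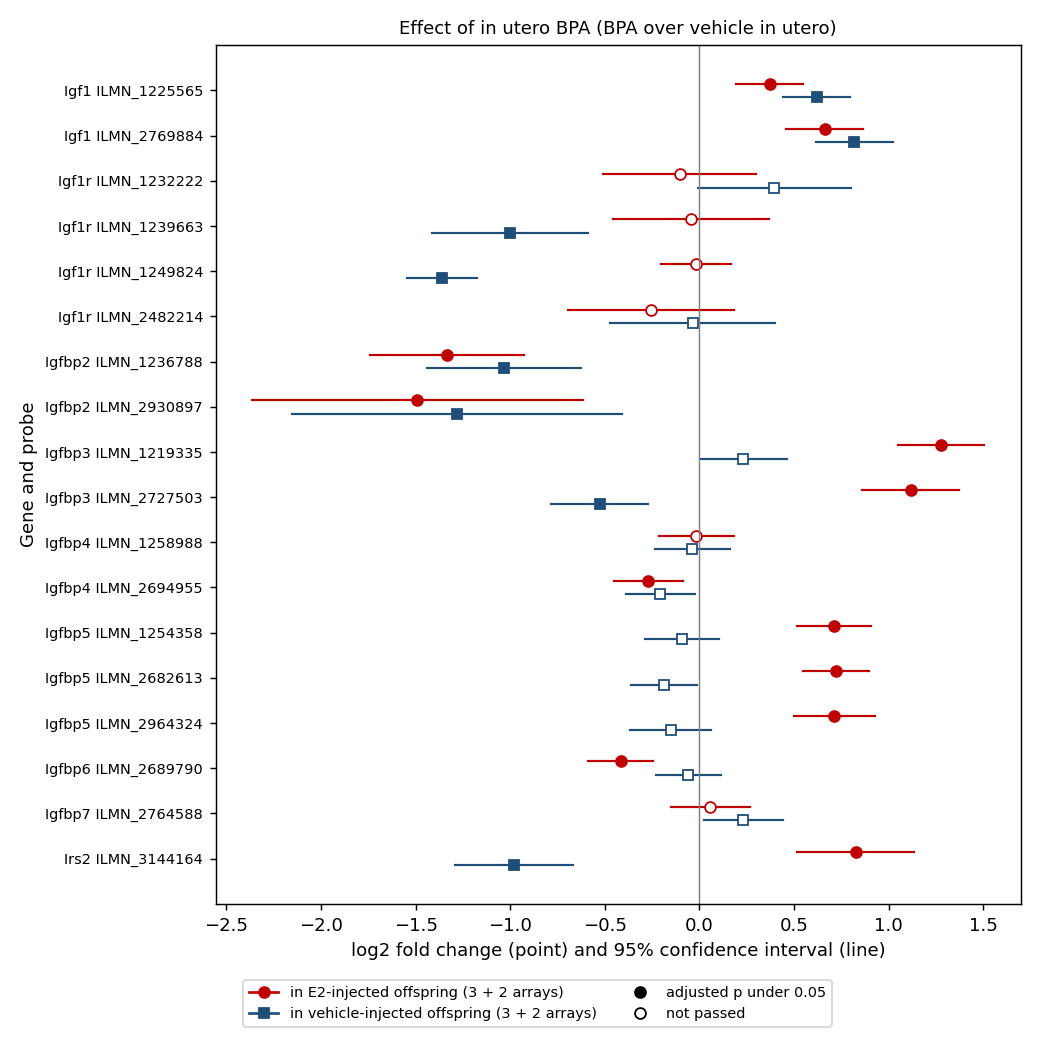
Log2 fold change with BPA over vehicle in utero for the 18 tested probes, in E2-injected (circles) and vehicle-injected (squares) offspring, with 95% confidence intervals and filled symbols for an adjusted p under 0.05. Both Igf1 probes lie above 0 and both Igfbp2 probes below 0 under either injection, while Irs2 lies on opposite sides.

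The other genes of the pathway were taken from 6 lists of 85 genes, of which 63 had a tested probe, 1 per gene, and the other 22 were not analysed here. Among 4 further ligands, receptors and carriers tested of 9, E2 raised 1 and lowered 1 after BPA (24.9% of all probes called), and lowered 3 after vehicle (18.1% called, 9.11% lower). Igfals, the acid-labile subunit that joins IGFBP3 in the ternary complex, rose with E2 after BPA by 1.11 ± 0.14 (adjusted p = 0.000684) and was lower with E2 after vehicle, at -0.68 ± 0.17 (adjusted p = 0.0286), a difference of 1.79 ± 0.23 (adjusted p = 0.00122). Igfals was dim, averaging 6.34 in BPA-E2, 5.23 in BPA-vehicle, 5.16 in vehicle-E2 and 5.83 in vehicle-vehicle arrays. It was detected on 2 of 3 BPA-vehicle arrays. The insulin receptor gene Insr was lower with BPA without E2, at -0.83 ± 0.11 (adjusted p = 0.00089), and its E2 response was 0.68 ± 0.16 more positive after BPA (adjusted p = 0.0259). Igf2r, which clears IGF2 from the cell surface, was lower in all 4 pairwise comparisons, most with BPA without E2 at -0.82 ± 0.09 (adjusted p = 0.000198). Igf2, the second ligand, was higher with BPA by 0.36 ± 0.11 under E2 and 0.34 ± 0.11 without E2 (adjusted p = 0.0365 and 0.043).

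Of 11 tested proteases and inhibitors that act on binding proteins, 4 rose and 5 fell with E2 after BPA, where 13.0% of all probes rose and 11.9% fell. After vehicle 2 rose and 2 fell, where 8.96% and 9.11% of all probes did. The matrix protease Mmp3 rose by 0.62 ± 0.10 with E2 after BPA (adjusted p = 0.0022) and fell after vehicle, at -1.50 ± 0.12 (adjusted p = 0.000128), and was lower with BPA without E2 at -2.11 ± 0.11 (adjusted p = 5.51e-06). Plat, the tissue plasminogen activator, rose by 1.15 ± 0.08 with E2 after BPA (adjusted p = 1.76e-05). The urokinase gene Plau and Stc2, an inhibitor of the IGFBP protease pappalysin, were lower with BPA under E2, at -1.64 ± 0.11 and -1.39 ± 0.09 (adjusted p = 1.77e-05 and 1.95e-05). They were lower with BPA without E2 as well, at -1.01 ± 0.11 and -0.93 ± 0.09 (adjusted p = 0.000263 and 0.000184).

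In the growth hormone axis, which drives Igf1 in liver, 2 of 6 tested genes rose with E2 after BPA (13.0% of all probes) and 3 of 6 after vehicle (8.96% of all probes). With BPA without E2, 4 of the 6 were higher and 0 lower (14.2% and 12.7% of all probes). Under E2, 2 were higher with BPA and 1 lower (13.7% and 12.8% of all probes). Socs3, a feedback inhibitor of cytokine receptors, rose by 0.91 ± 0.09 after BPA and by 0.78 ± 0.11 after vehicle (adjusted p = 0.000141 and 0.00166). Stat5a, a transcription factor of this axis, had -0.25 ± 0.10 with E2 after BPA (adjusted p = 0.1) and rose by 1.21 ± 0.12 after vehicle (adjusted p = 0.000358), a difference of -1.47 ± 0.16 (adjusted p = 0.000595). Socs2 had -0.15 ± 0.07 after BPA (adjusted p = 0.177) and rose by 0.74 ± 0.09 after vehicle (adjusted p = 0.00094), a difference of -0.89 ± 0.12 (adjusted p = 0.00156). Both already stood higher without E2 after BPA. Stat5a averaged 9.06 in BPA-vehicle and 8.31 in vehicle-vehicle arrays, and Socs2 11.93 and 11.24. The receptor gene Ghr rose by 0.41 ± 0.07 with E2 after BPA (adjusted p = 0.00386).

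Among 12 tested adaptors and regulators of the receptor, 1 rose with E2 after BPA (24.9% of all probes called). After vehicle 2 fell (18.1% called), and in both E2 comparisons the share called was no larger than among all probes. For BPA without E2, 2 were higher and 3 lower (26.9% of all probes called). The adaptor Gab1 and the arrestin Arrb2 fell after vehicle, at -0.61 ± 0.09 and -0.75 ± 0.16 (adjusted p = 0.00203 and 0.0131), and both responses were more positive after BPA, by 0.63 ± 0.11 and 0.88 ± 0.21 (adjusted p = 0.00783 and 0.0253). Both were lower with BPA without E2, at -0.67 ± 0.08 and -0.98 ± 0.15 (adjusted p = 0.00043 and 0.00139). The adaptor Shc1 was lower with BPA under E2, at -0.39 ± 0.08, and without E2, at -0.34 ± 0.08 (adjusted p = 0.0094 and 0.0169). Irs3 was detected on all 6 BPA-exposed arrays and on none of the 4 vehicle-exposed arrays, so it passed the detection filter only through the group where it is high, and no test is given for it. Its level averaged 5.60 in BPA-E2, 5.51 in BPA-vehicle, 4.57 in vehicle-E2 and 4.81 in vehicle-vehicle arrays, the last 2 not above background.

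Of 24 tested genes of the PI3 kinase, AKT and mTOR arm, 2 rose and 3 fell with E2 after BPA (24.9% of all probes called), and 2 rose and 2 fell after vehicle (18.1% called), shares near or below those of all probes. Ddit4, an inhibitor of mTOR complex 1, fell by 1.22 ± 0.09 after BPA (adjusted p = 3.6e-05) and had -0.00 ± 0.12 after vehicle (adjusted p = 0.995), a difference of -1.22 ± 0.15 (adjusted p = 0.00106). The regulatory subunit Pik3r3 had -0.10 ± 0.07 after BPA (adjusted p = 0.371) and rose by 0.49 ± 0.09 after vehicle (adjusted p = 0.00577), a difference of -0.59 ± 0.11 (adjusted p = 0.0108). Pdpk1, which phosphorylates AKT, was higher with BPA by 0.78 ± 0.10 under E2 and 0.54 ± 0.10 without E2 (adjusted p = 0.00064 and 0.00442), as was the mTOR scaffold Rptor, by 0.34 ± 0.09 and 0.56 ± 0.09 (adjusted p = 0.0176 and 0.00168). Of 6 tested genes of the MAP kinase arm, 2 rose and 1 fell with E2 after BPA (24.9% of all probes called), and 2 rose after vehicle (18.1% called). Spry4, an inhibitor of receptor tyrosine kinase signalling, rose by 0.72 ± 0.16 after BPA and 1.22 ± 0.20 after vehicle (adjusted p = 0.0116 and 0.00355), and the kinase Map2k2 by 0.29 ± 0.08 and 0.49 ± 0.09 (adjusted p = 0.0234 and 0.00778). The ERK phosphatase Dusp6 fell by 0.59 ± 0.08 after BPA (adjusted p = 0.000694), and the small GTPase gene Nras did not pass in any comparison.

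**Figure D4:**
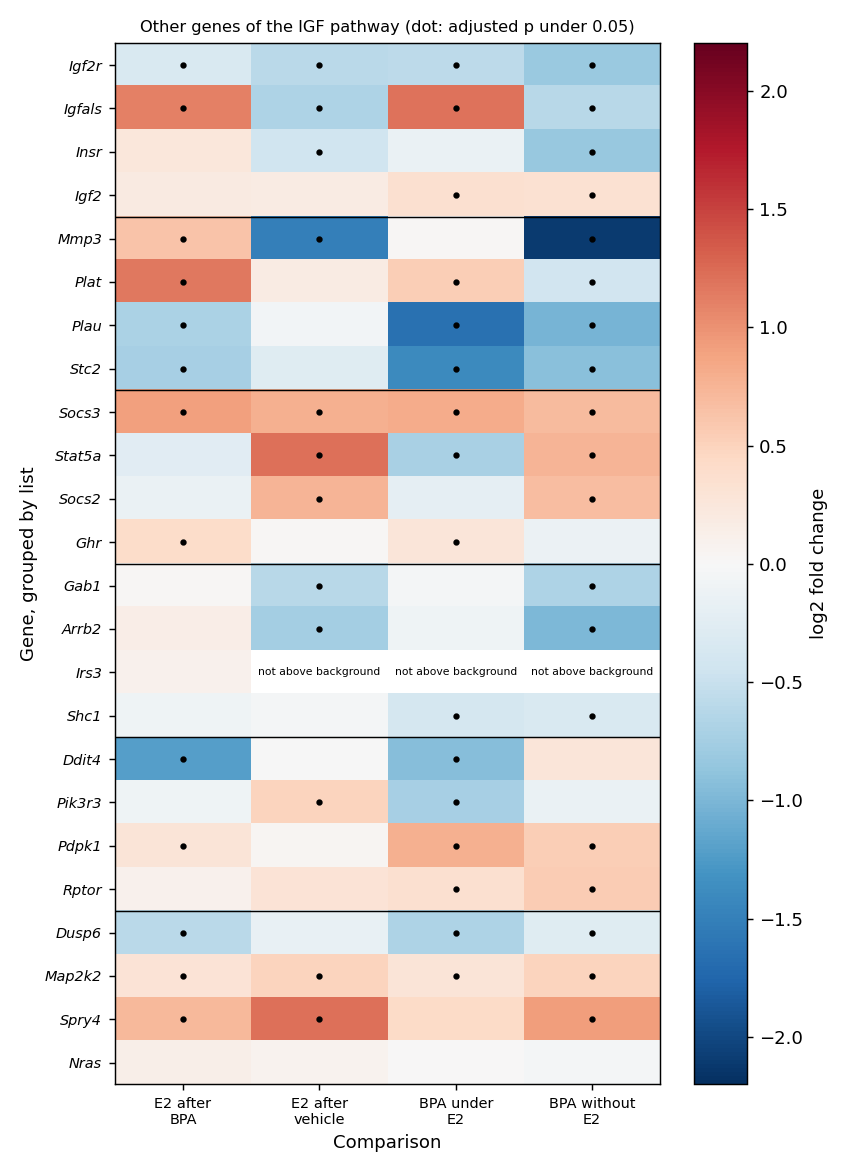
Log2 fold changes of up to 4 genes of each of the 6 other pathway lists (rows, lists divided by lines) in 4 comparisons (columns), red for higher and blue for lower in the E2 or BPA group. A dot marks an adjusted p under 0.05, and cells are left blank where a group was not above background on any array (Irs3 in vehicle-exposed uteri). Mmp3 and Igfals, which was dim, are red for E2 after BPA and blue for E2 after vehicle.

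The genes most like 2 members in profile were found among 12394 other genes by Pearson's correlation over the 10 arrays, which share their groups, slides and normalization. For the Igf1 probe ILMN_1225565 they were Nsfl1c, Hspa1a, Trap1, Acta1 and Sdf2l1, with r = 0.977 to 0.983. The heat shock gene Hspa1a averaged 8.97 in BPA-E2, 9.04 in BPA-vehicle, 8.12 in vehicle-E2 and 7.16 in vehicle-vehicle arrays, so its BPA-exposed groups were above its vehicle-exposed groups, as with Igf1. For the Igfbp2 probe ILMN_2930897, whose group means ranged most (1.54), they were Cmpk1, Umad1, Sidt2, Kcnab2 and Cldn15, with r = 0.929 to 0.954.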

How the data were processed

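Uterine RNA was measured on 10 Illumina bead arrays, 1 per litter pool and injection, from biotin-labelled cRNA. The authors deposited each probe's mean bead signal, a linear intensity without normalization per the file headers, beside its detection p-value. The authors' processed table also holds linear intensities, by a method not given in the sources used here, and served as an alternative. Signals were background-corrected, quantile-normalized and taken to log2 by limma's neqc (offset 16, limma 3.58.1, R 4.3.3), so these log2 values were computed here from the deposited signals. Probes detected at p under 0.05 on at least 2 arrays (23942 of 45281) entered 1 limma fit of the 4 group means, with two-sided moderated tests of 5 contrasts. Symbols came from the platform annotation, with 1 symbol for 34885 probes, several for 18 and none for 10378. Probes of 1 gene were compared by exact permutation. The members and lists were chosen with earlier results of these data known. Named pathway genes were the up to 4 per list with the smallest adjusted p, and genes alike in profile were named for the brightest Igf1 probe and for the member probe with the widest range of group means, 5 each. Gene models and promoters were from RefSeq (GRCm38.p6). The scripts were tested on simulated data. Litter numbers in the labels pair an E2 and a vehicle array of 1 exposure. Deviations of paired arrays from their group means correlated at -0.03 to 0.02. Litter was a fixed block for E2 responses and a random block for BPA effects (duplicateCorrelation with statmod 1.5.0, consensus correlation 0.00952) among the alternatives. These also covered background correction, cyclic loess, the authors' table, detection filters, 1 probe per gene, the variance model (a trend with robust estimation), weights per array, a fit of just the groups compared, and dropping arrays singly. Figures were drawn with matplotlib 3.10.9.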

Additional observations from a re-analysis of the deposited data

Results flagged for a closer look

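The E2 response differed between BPA and vehicle in utero, by the test of the difference itself, for 8 of 18 member probes, of 4 genes. Of all probes 12.1% were called, 6.01% more positive and 6.14% more negative after BPA. On the log2 scale, BPA minus vehicle, the differences were 1.81 for Irs2 (ILMN_3144164), 1.64 and 1.04 for Igfbp3 (ILMN_2727503 and ILMN_1219335), 1.34 and 0.96 for Igf1r (ILMN_1249824 and ILMN_1239663), and 0.91, 0.86 and 0.80 for Igfbp5 (ILMN_2682613, ILMN_2964324 and ILMN_1254358). The call for ILMN_1239663 did not pass when litter was blocked (adjusted p = 0.0506) or with no detection filter (adjusted p = 0.0635). It was lost also when some single arrays were left out. Groups of 2 or 3 arrays are too small for a test of single outlying arrays.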

How the results depend on the processing

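Over the 5 comparisons and 21 alternatives, 1291 of 1377 values of member probes kept their side of the threshold, 52 called values lost it, 34 passed it newly and 0 called values changed sign. Sign changes among values short of the threshold on both sides numbered 27 and are counted as kept. Of 41 calls, 30 held in every alternative in which the probe was tested. With 1 probe per gene symbol, which leaves 9 members by construction, 4 were called for E2 after BPA, 3 for E2 after vehicle, 5 for the difference of the responses, 6 for BPA under E2 and 5 for BPA without E2. Of all 16272 probes tested in that setting, 4725, 3643, 2533, 5037 and 5067 were called, in the same order. With a variance trend and robust estimation, 12 member probes were called for E2 after BPA and 11 for E2 after vehicle, while the calls over all probes were 7516 against 5971 and 5877 against 4326. The replicate block (litter) left 4 member probes called for E2 after BPA, against 7 without it, and 4727 of all probes, against 5971. For the difference of the responses it left 1879 of all probes, against 2908. Other calls it ended are given with the genes. Fitting only the groups compared left 1368 of all probes for E2 after vehicle, against 4326. Leaving out 1 array gave 3 to 6 member probes for E2 after BPA, and of all probes 2582 to 2820 for E2 after vehicle, 4094 to 5019 for BPA under E2 and 4170 to 5420 for BPA without E2. For E2 after BPA the runs without 1 array called 4430 to 4836 of all probes. The causes were not tested. Where leaving out an array leaves a group with 1, that array is assumed to vary like the others. No alternative moved the median of all probes by over 0.1. Signal over background limits the 2 dim Igf1r probes, Igfbp2, Irs2, Irs1 and Igfals.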

Other observations

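Of the 23 member probes, 5 were outside the tests. Irs1 (ILMN_1248206) had raw signals of 109.96 to 133 and 4 Igfbp7 probes had raw signals of 93.8 to 138, near the background. The 5 Igfbp7 probes carry the same transcript record in the platform annotation.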
